A study of Mus musculus with 6 samples.

Results

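The 8 genes described here encode enzymes of folate-dependent one-carbon metabolism and of the nucleotide synthesis that it feeds: Shmt2, Mthfd2 and Mthfd1l of the mitochondria, and Mthfd1, Shmt1, Tyms, Gart and Atic of the cytosol. They were taken by gene name from a table of 19353 genes, and all 8 had a row and passed the filter on low counts. The samples were primary wild-type mouse bone marrow mesenchymal stem cells, stromal cells that can form bone, induced toward bone with dexamethasone (100 nM), β-glycerophosphate (10 mM) and ascorbic acid (50 µM). The MCH group (3 libraries) also received melanin-concentrating hormone, a neuropeptide of the hypothalamus, at 0.5 µM, and the Control group (3 libraries) was induced without it. The titles give day 9 of induction and the design text day 8, and neither strain and age nor the origin of the replicates (separate mice, separate cultures or 1 pool) is stated. P-values therefore measure only library-to-library spread, possibly technical. The question is how transcript levels differed when the hormone was present during bone induction.

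Folate carries single carbon units taken mainly from serine. In mitochondria SHMT2 moves a carbon from serine to tetrahydrofolate, MTHFD2 oxidises it and MTHFD1L releases it as formate. Formate crosses to the cytosol, where MTHFD1 attaches it to folate again; thymidylate synthase (TYMS) then uses the unit to make the thymine of DNA, and GART and ATIC use it to build the purine ring. Dividing cells draw on this route heavily, and several of its genes are known targets of MYC and ATF4, factors that respond to growth signals and to amino acid shortage.

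In all 8 genes every MCH library lay above every Control library, and the differences were small (fitted log2 fold change above 0 in 8 of 8, against 50.3% of all genes tested). Tyms, Mthfd1, Mthfd2 and Shmt2 rose by 1.36-, 1.24-, 1.22- and 1.19-fold and passed the threshold, an adjusted p under 0.05 by the quasi-likelihood test of edgeR with Benjamini-Hochberg adjustment over 13662 genes, while Shmt1, Atic, Gart and Mthfd1l did not pass it. Among all genes tested, 3.64% were called higher and 5.40% lower, and in 16.1% the lowest MCH library lay above the highest Control library, as it did for 8 of the 8 enzymes. The median log2 fold change was 0.27 over the 8 enzymes and 0.00 over all genes tested. For 7 of the 8 the unadjusted p was under 0.05 in the upward direction, which held for 12.9% of all genes tested. The 8 enzymes and the gene lists below were chosen with earlier results of these data known. These contrasts with all genes are therefore not independent of that choice. More RNA per cell and more cells that express these genes cannot be told apart in bulk RNA.

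**Figure D1:**
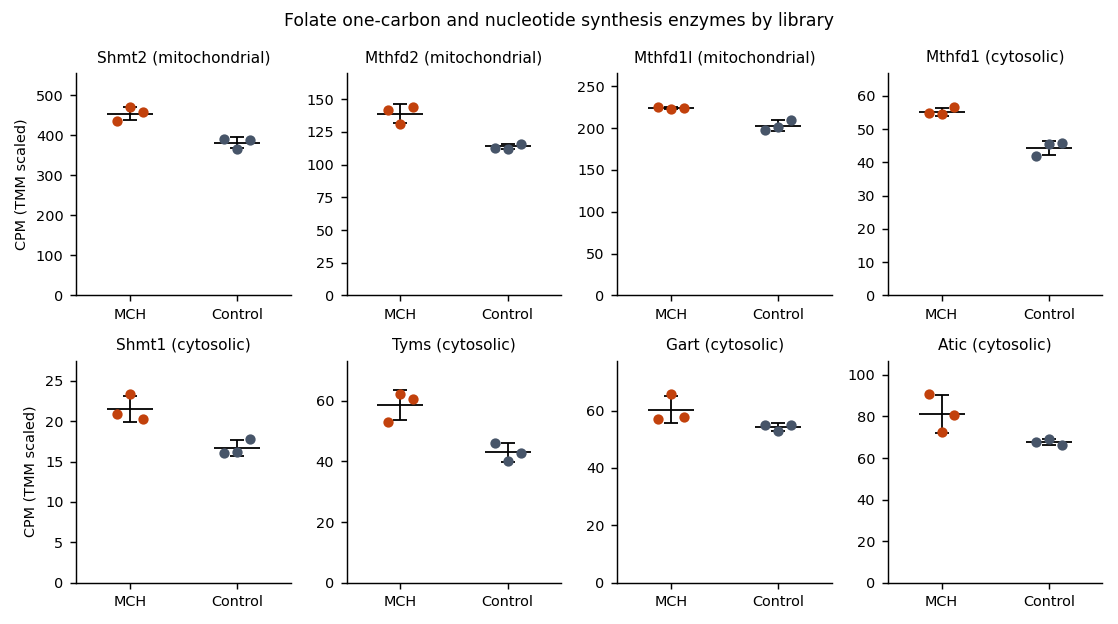
Level of each enzyme in CPM (counts scaled to a common library size by TMM; vertical axis from 0) in the 3 MCH and 3 Control libraries; points are libraries, the bar is the mean and the whiskers are the SD. In each panel the lowest MCH point lies above the highest Control point, closely so for Gart (57.1 against 55.1 CPM) and Atic (72.3 against 69.3 CPM).

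Among the mitochondrial enzymes, Shmt2 was the most abundant of the 8, with 436, 470.1 and 457 CPM (counts scaled to a common library size) in MCH replicates 1 to 3, against 390.4, 366 and 387 CPM in Control. The groups did not overlap, and the difference was 0.25 ± 0.06 on the log2 scale (MCH minus Control ± SE; edgeR adjusted p = 0.0412). Mthfd2, whose enzyme is abundant in embryos and tumours and scarce in most resting adult tissue, stood at 142, 131 and 144 CPM with MCH and at 113, 112 and 116 CPM in Control. Its MCH replicate 2 was the lowest of the treated libraries, still above all Control libraries, and the log2 fold change was 0.29 ± 0.06 (edgeR adjusted p = 0.0291). Mthfd1l, the formate-releasing ligase, had 225, 223 and 224 CPM with MCH, against 198, 201 and 209.9 CPM in Control. These MCH libraries were the most even of any of the 8 genes, with a coefficient of variation of 0.356%, but the log2 fold change of 0.14 ± 0.05 did not pass the threshold (edgeR adjusted p = 0.136).

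Of the cytosolic folate enzymes, Mthfd1, which joins formate to tetrahydrofolate and interconverts the bound units, had 54.7, 54.4 and 56.6 CPM with MCH and 42.0, 45.5 and 45.8 CPM in Control. That is a rise of 0.31 ± 0.07 on the log2 scale (edgeR adjusted p = 0.0350), with a clear gap between the groups. Shmt1, the cytosolic counterpart of Shmt2, was the lowest of the 8 at 20.9, 23.3 and 20.3 CPM with MCH, against 16.0, 16.2 and 17.8 CPM in Control. Its log2 fold change of 0.37 ± 0.10 was larger than that of Mthfd1 but less precise, and it missed the threshold (edgeR adjusted p = 0.0566).

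Tyms, which methylates deoxyuridylate to thymidylate, showed the largest difference of the 8: 53.0, 62.1 and 60.7 CPM with MCH, against 46.2, 40.2 and 42.7 CPM in Control (log2 fold change 0.45 ± 0.09; edgeR adjusted p = 0.0267). MCH replicate 1 was the lowest treated library and Control replicate 1 the highest control library, and they still did not meet. Among the 497 genes called higher the median log2 fold change was 0.43, and 216 of them had a larger one than Tyms, whereas 410, 445 and 473 had a larger one than Mthfd1, Mthfd2 and Shmt2.

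The enzymes of purine ring assembly did not pass. Gart, which carries 3 activities of the pathway in a single protein in animals, had 57.1, 65.6 and 57.8 CPM with MCH, against 55.0, 52.8 and 55.1 CPM in Control, so that MCH replicates 1 and 3 were only slightly above Control (log2 fold change 0.15 ± 0.08; edgeR adjusted p = 0.268). Atic, which completes inosine monophosphate, had 90.6, 72.3 and 80.9 CPM with MCH and 67.8, 69.3 and 66.2 CPM in Control. Its MCH libraries were the most spread of the 8 genes, with a coefficient of variation of 11.3% against 2.32% in Control, and the log2 fold change of 0.26 ± 0.09 gave an edgeR adjusted p of 0.110. For Gart and Atic a p above the threshold does not show equal levels.

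These calls lay close to the threshold, and most were lost when 1 library was left out. All 4 were kept without MCH replicate 1. Mthfd2 alone was called without MCH replicate 2, Tyms alone without Control replicate 1, and none of the 8 in the fits that left out MCH replicate 3 or either of Control replicates 2 and 3. Without MCH replicate 3, Tyms, Mthfd1, Mthfd2 and Shmt2 had log2 fold changes of 0.42, 0.30, 0.26 and 0.25 (edgeR adjusted p = 0.109, 0.139, 0.126 and 0.153). Over the 6 fits without 1 library the fitted changes ran from 0.40 to 0.51 for Tyms, 0.28 to 0.34 for Mthfd1, 0.26 to 0.33 for Mthfd2 and 0.22 to 0.28 for Shmt2. Of the enzymes that did not pass, Shmt1 ran from 0.31 to 0.42 and Mthfd1l from 0.12 to 0.17. Gart was at 0.08 without MCH replicate 2, its highest library, and lay at 0.13 to 0.18 in the other fits. Atic ran from 0.18 without MCH replicate 1 to 0.34 without MCH replicate 2. All 8 genes stayed above 0 in these fits. Among all genes tested, 65 were called higher without MCH replicate 3 and 722 without MCH replicate 1, against 497 with all libraries. In the authors' deposited table none of the 8 genes is marked as changed, with q-values from 0.143 for Tyms to 0.828 for Gart.

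**Figure D2:**
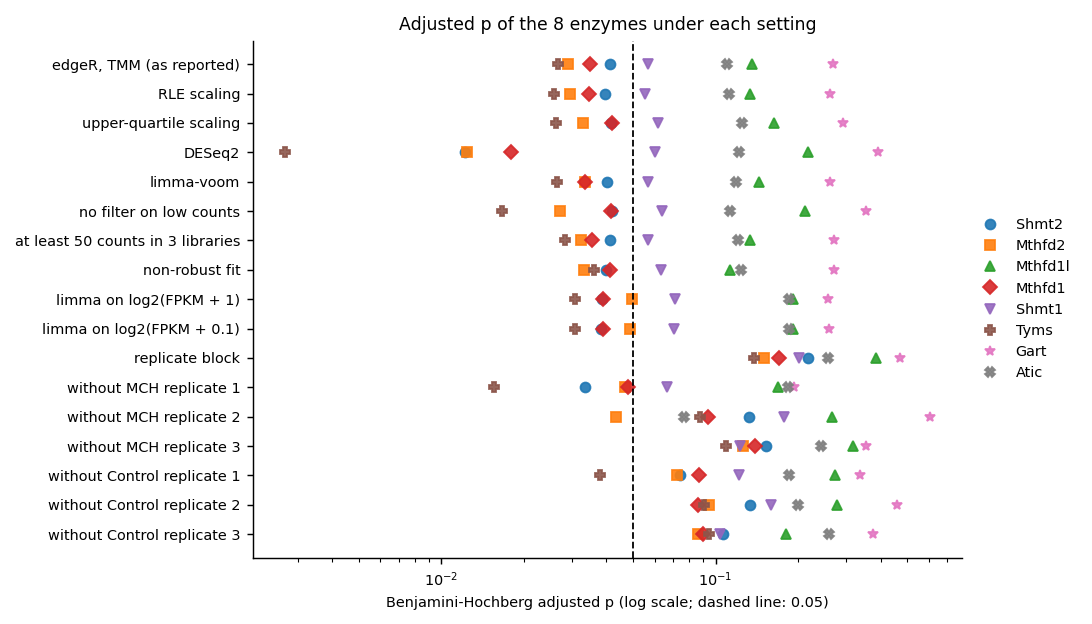
Benjamini-Hochberg adjusted p (horizontal, log scale) of each of the 8 enzymes under the reported edgeR fit and each alternative (rows); the dashed line marks 0.05. Tyms, Mthfd1, Mthfd2 and Shmt2 lie left of the line in the reported fit and in the 9 settings that change scaling, filter, test or unit, and mostly right of it with the replicate block or with 1 library left out.

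Compared per length, the mitochondrial enzymes were more abundant than their cytosolic counterparts in both groups. The FPKM values of the authors put Shmt2 at 196 ± 3.62 with MCH and 166 ± 4.02 in Control (SD, n = 3), Mthfd1l at 39.6 ± 0.891 and 36.1 ± 1.44, and Mthfd2 at 27.9 ± 1.83 and 23.0 ± 0.601. Next came Mthfd1 with 16.5 ± 0.429 FPKM with MCH and 13.4 ± 0.839 in Control, and Gart with 12.7 ± 0.814 and 11.5 ± 0.199. Atic, Tyms and Shmt1 were last, at 9.21 ± 1.22, 5.59 ± 0.366 and 3.75 ± 0.241 FPKM with MCH and 7.72 ± 0.247, 4.13 ± 0.224 and 2.92 ± 0.191 in Control. No neighbours in this order overlapped within a group. The lower part of the order depended on the gene length used. The length implied by counts and FPKM was 10435 bases for Tyms and 8800 for Atic, 3.30 and 3.09 times the longest coding transcript in the GENCODE M21 annotation, but 1.01 times for Shmt2 and 1.03 times for Mthfd1. Per kilobase of that transcript, Atic stood at 28.6 ± 3.22 CPM per kb with MCH and 23.8 ± 0.553 in Control and moved up to rank 4. Tyms (18.5 ± 1.56), Gart (17.1 ± 1.34) and Mthfd1 (17.0 ± 0.357) then lay within their spread of each other with MCH, and Mthfd2 (66.6 ± 3.45) came above Mthfd1l (60.8 ± 0.216) with MCH, while in Control they were level (54.6 ± 1.05 and 55.1 ± 1.64). Shmt2 stayed first and Shmt1 last.

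**Figure D3:**
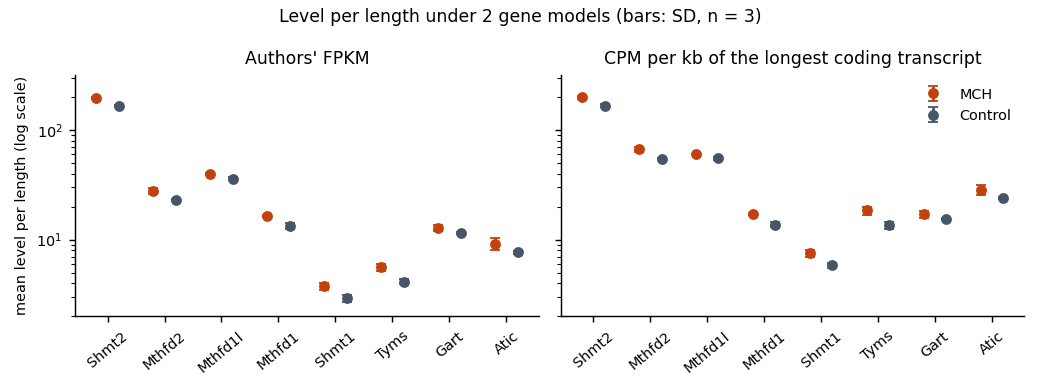
Mean level per length (log scale) of the 8 enzymes with MCH and in Control, by the authors' FPKM on the left and as CPM per kb of the longest coding transcript on the right; bars are SD (n = 3) and are often smaller than the points. Shmt2 is highest and Shmt1 lowest under both. On the right, Atic moves up in the order in both groups and Tyms with MCH only.

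Ratios within a library do not depend on library scaling, and gene length cancels from their difference between groups. Shmt2 exceeded Shmt1 by 52.4-fold with MCH and 56.8-fold in Control in FPKM (26.4- and 28.6-fold per coding length). The log2 ratio was 5.69, 5.64 and 5.80 in the MCH libraries and 5.92, 5.80 and 5.76 in Control. These groups overlapped (difference -0.11; two-sided exact permutation p = 0.2). For Mthfd2 to Mthfd1 the log2 ratio was 0.80, 0.68 and 0.77 with MCH and 0.85, 0.73 and 0.77 in Control, with no separation (difference -0.03; exact permutation p = 0.5). The ratio of Mthfd1l to Mthfd1 was lower with MCH, with log2 values of 1.28, 1.27 and 1.23 with MCH and 1.48, 1.39 and 1.43 in Control (difference -0.17; exact permutation p = 0.1). That is the smallest p that 3 libraries against 3 can give, so the threshold could not be reached. Adjusted over the 3 ratios by Benjamini-Hochberg, the permutation p-values were 0.3, 0.5 and 0.3 in the order given. Summed over the members, the mitochondrial transcripts reached 817 ± 12.1 CPM with MCH and 698 ± 17.2 CPM in Control, and the cytosolic ones at 277 ± 0.871 and 226 ± 1.91 CPM. The mitochondrial share of the total was 74.7 ± 0.260% with MCH and 75.5 ± 0.304% in Control.

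**Figure D4:**
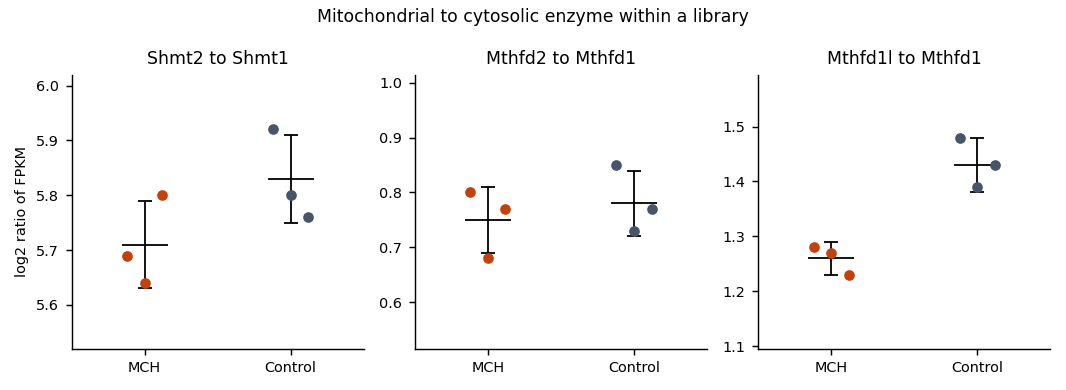
Log2 ratio of FPKM of a mitochondrial enzyme to its cytosolic counterpart in each library, MCH on the left of each panel and Control on the right; the bar is the mean and the whiskers are the SD (n = 3), and the vertical axes span equal log2 ranges that do not start at 0. The groups are interleaved for Shmt2 to Shmt1 and Mthfd2 to Mthfd1 and apart for Mthfd1l to Mthfd1, where MCH lies between 1.23 and 1.28 and Control between 1.39 and 1.48.

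The bases just before the transcription start are shown for the 4 genes that passed the threshold, since they rose together. Each line gives the 100 bases before the RefSeq start (GRCm38.p6), 5′ to 3′ on the gene's strand, with motif matches in capitals. They lie at chr5:30073626-30073725 on the minus strand for Tyms, chr12:76255132-76255231 on the plus strand for Mthfd1, chr6:83317605-83317704 on the minus strand for Mthfd2 and chr10:127522445-127522544 on the minus strand for Shmt2. The Mthfd2 window lies inside the span of the gene in the deposited table (chr6:83305691-83325908), so its RefSeq start differs from the start there. The 100 bases before the RefSeq start of Shmt1, not shown, also lie inside its span.
Tyms: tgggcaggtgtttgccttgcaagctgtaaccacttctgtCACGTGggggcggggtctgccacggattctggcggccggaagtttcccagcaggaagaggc
Mthfd1: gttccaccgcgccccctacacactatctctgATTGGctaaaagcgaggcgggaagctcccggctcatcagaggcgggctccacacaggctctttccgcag
Mthfd2: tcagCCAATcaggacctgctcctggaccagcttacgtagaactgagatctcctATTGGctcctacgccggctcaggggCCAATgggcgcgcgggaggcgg
Shmt2: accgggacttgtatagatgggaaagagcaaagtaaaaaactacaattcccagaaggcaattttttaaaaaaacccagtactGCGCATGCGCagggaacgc

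These 4 windows shared no single motif among those searched. The search covered both strands of the 250 bases before the start. Tyms held an E-box (CACGTG, the core bound by MYC and related factors), a motif present in 6.02% of 32851 RefSeq windows of the same length and, among the 8 enzymes, also in Atic. Shmt2 held the palindromic NRF1 site (the capitals in its line above), found in 0.782% of windows. The CCAAT box of the factor NF-Y, found in 33.8% of windows, was in 5 of the 8: 3 times in Mthfd2 and once each in Mthfd1, Shmt1, Gart and Atic. None of the 8 windows held the exact E2F letters TTTCGCGC, TTTGGCGC or TTTCCCGC, the CRE TGACGTCA, or TGATGNAAN, the response element bound by ATF4, which were present in 0.256%, 0.417%, 0.895%, 1.55% and 3.44% of windows. CCAAT and the other motifs did not overlap one another in the 8 windows. A match is a run of letters and not a measured binding site.

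The rest of the pathway was read from 10 gene lists, of which 68 genes other than the 8 were tested. Of these, 13 were called higher and 3 lower, with a median log2 fold change of 0.16. Over all genes tested 3.64% were called higher and 5.40% lower, so the lower calls were not in excess of the whole table. In the mitochondrial folate list, 3 of 7 genes rose and none fell. The gene that joined Shmt2 and Mthfd2 was Aldh1l2, which oxidises the formyl unit on folate, with 223 ± 14.4 CPM in MCH libraries and 183 ± 10.8 CPM in Control (SD, n = 3; log2 fold change 0.29 ± 0.07; edgeR adjusted p = 0.0487). That call was kept in 3 of 9 alternatives of scaling, filter, test or unit and in 0 of 6 fits without 1 library. Mthfd2l, a close relative of Mthfd2, had 9.53 ± 0.938 CPM with MCH and 11.6 ± 3.17 CPM in Control, and the folate carrier of the inner membrane, Slc25a32, 11.5 ± 0.707 and 10.9 ± 1.26 CPM. Neither passed.

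Among the cytosolic folate genes reported here, 2 of 4 tested rose, Mthfd1 and Tyms, and none fell. Mthfs, which returns 5-formyltetrahydrofolate to use, did not pass, like Shmt1. No gene passed in the lists of folate uptake and polyglutamation (0 of 4 tested), the glycine cleavage system (0 of 4) or the methionine cycle and transsulfuration (0 of 9). Over all genes tested 3.64% were called higher and 5.40% lower, so 0 calls do not set lists this short apart. The smallest p in these lists belonged to the folate importer Slc19a1 (log2 fold change 0.14 ± 0.07; edgeR adjusted p = 0.257), the glycine cleavage protein Gcsh (0.24 ± 0.07; 0.0829) and Mat2b, the regulatory subunit of the S-adenosylmethionine synthetase (-0.26 ± 0.07; 0.0682).

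Of the serine synthesis genes that supply the substrate of the SHMT enzymes, 2 of 3 rose, against 3.64% of all genes tested. Psph, the last enzyme of the route, had 61.7 ± 0.703 CPM with MCH and 43.2 ± 4.20 CPM in Control (log2 fold change 0.51 ± 0.09; edgeR adjusted p = 0.0135). Phgdh, the first enzyme, had 139 ± 4.77 and 102 ± 14.5 CPM (0.44 ± 0.10; 0.0352). The call was kept in 5 of 6 fits without 1 library for Psph (highest adjusted p = 0.0609) and in 1 of 6 for Phgdh (highest adjusted p = 0.109).

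De novo purine synthesis was mixed: of 13 genes, including Gart and Atic, 2 rose and 1 fell. The shares of all genes tested were 3.64% called higher and 5.40% lower. The median log2 fold change of this list was 0.17. Gmps, which aminates xanthylate to GMP, rose by 0.32 ± 0.05 (edgeR adjusted p = 0.0122), and Prps1, which makes the activated ribose that starts the pathway, by 0.28 ± 0.06 (0.0336). Adssl1, the muscle-type adenylosuccinate synthase, fell by 0.57 (SE 0.11; edgeR adjusted p = 0.0204). Without 1 library these calls were kept in 3, 1 and 3 of 6 fits, with highest adjusted p = 0.0562, 0.141 and 0.0875. The folate-independent steps were not alike. Paics (104 ± 3.94 CPM with MCH and 108 ± 16.6 CPM in Control) and Adsl (63.6 ± 3.46 and 61.5 ± 9.96 CPM) had overlapping groups. Ppat (20.7 ± 1.34 and 16.8 ± 1.19 CPM) and Pfas (19.6 ± 2.69 and 15.7 ± 3.20 CPM) had log2 fold changes of 0.29 ± 0.10 and 0.32 ± 0.17. The groups of Pfas overlapped too, with 16.5 CPM in MCH replicate 1 and 19.4 CPM in Control replicate 1. Neither Ppat nor Pfas passed (edgeR adjusted p = 0.106 and 0.267). In de novo pyrimidine synthesis 1 of 6 genes rose. It was Dhodh, the mitochondrial dihydroorotate dehydrogenase (0.38 ± 0.10; edgeR adjusted p = 0.0495), a call kept in 4 of 9 other settings and in 1 of 6 fits without 1 library (highest adjusted p = 0.162).

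In the deoxynucleotide list, to which Tyms belongs, 7 of 14 genes rose and none fell, with a median log2 fold change of 0.41. Over all genes tested 3.64% were called higher. The list had the highest count of the 10 lists but also the most genes tested. Serine synthesis had 2 of 3 and a median of 0.44, and the cytosolic folate list 2 of 4 and 0.34. Dctd, the deaminase that makes the substrate of thymidylate synthase, had 23.0 ± 1.35 CPM with MCH and 13.0 ± 0.476 CPM in Control (log2 fold change 0.82 ± 0.09; edgeR adjusted p = 0.00312). Tk1, the thymidine kinase of dividing cells, had 57.5 ± 4.82 and 33.1 ± 3.67 CPM (0.80 ± 0.11; 0.00556), and Rrm2, the small subunit of ribonucleotide reductase, 108 ± 3.97 and 71.3 ± 1.37 CPM (0.60 ± 0.06; 0.00200). These 3 calls were kept in 6 of 6 fits without 1 library. Dut, which hydrolyses dUTP to the substrate of Tyms, rose by 0.48 ± 0.09, the thymidylate kinase Dtymk by 0.46 ± 0.11 and the large reductase subunit Rrm1 by 0.28 ± 0.06, and these calls were kept in 2, 2 and 1 of 6 such fits (highest edgeR adjusted p = 0.0906, 0.126 and 0.114). The mitochondrial counterparts of this route, Tk2 (0.07 ± 0.08) and Dguok (0.16 ± 0.08), did not pass. Neither did the remaining genes of the list: Dck (0.18 ± 0.11), Rrm2b (0.37 ± 0.20), Samhd1 (-0.06 ± 0.07), Nme1 (0.70 ± 0.19) and Nme2 (0.36 ± 0.22).

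In the salvage and breakdown list 1 of 13 tested genes rose and 2 fell, against 3.64% called higher and 5.40% lower among all genes tested. Hprt, which recovers hypoxanthine and guanine, rose by 0.32 ± 0.07 (edgeR adjusted p = 0.0298; kept in 2 of 6 fits without 1 library, highest adjusted p = 0.0959). Xdh, which oxidises purines to uric acid, had 312 ± 19.2 CPM with MCH and 542 ± 24.4 CPM in Control (log2 fold change -0.80 ± 0.07; edgeR adjusted p = 0.00103; kept in 6 of 6). Nt5e, a surface nucleotidase that is also a marker of mesenchymal stem cells, fell by 0.74 (SE 0.18; adjusted p = 0.0409), a call kept in 6 of 9 other settings and in 1 of 6 fits without 1 library (highest adjusted p = 0.134).

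**Figure D5:**
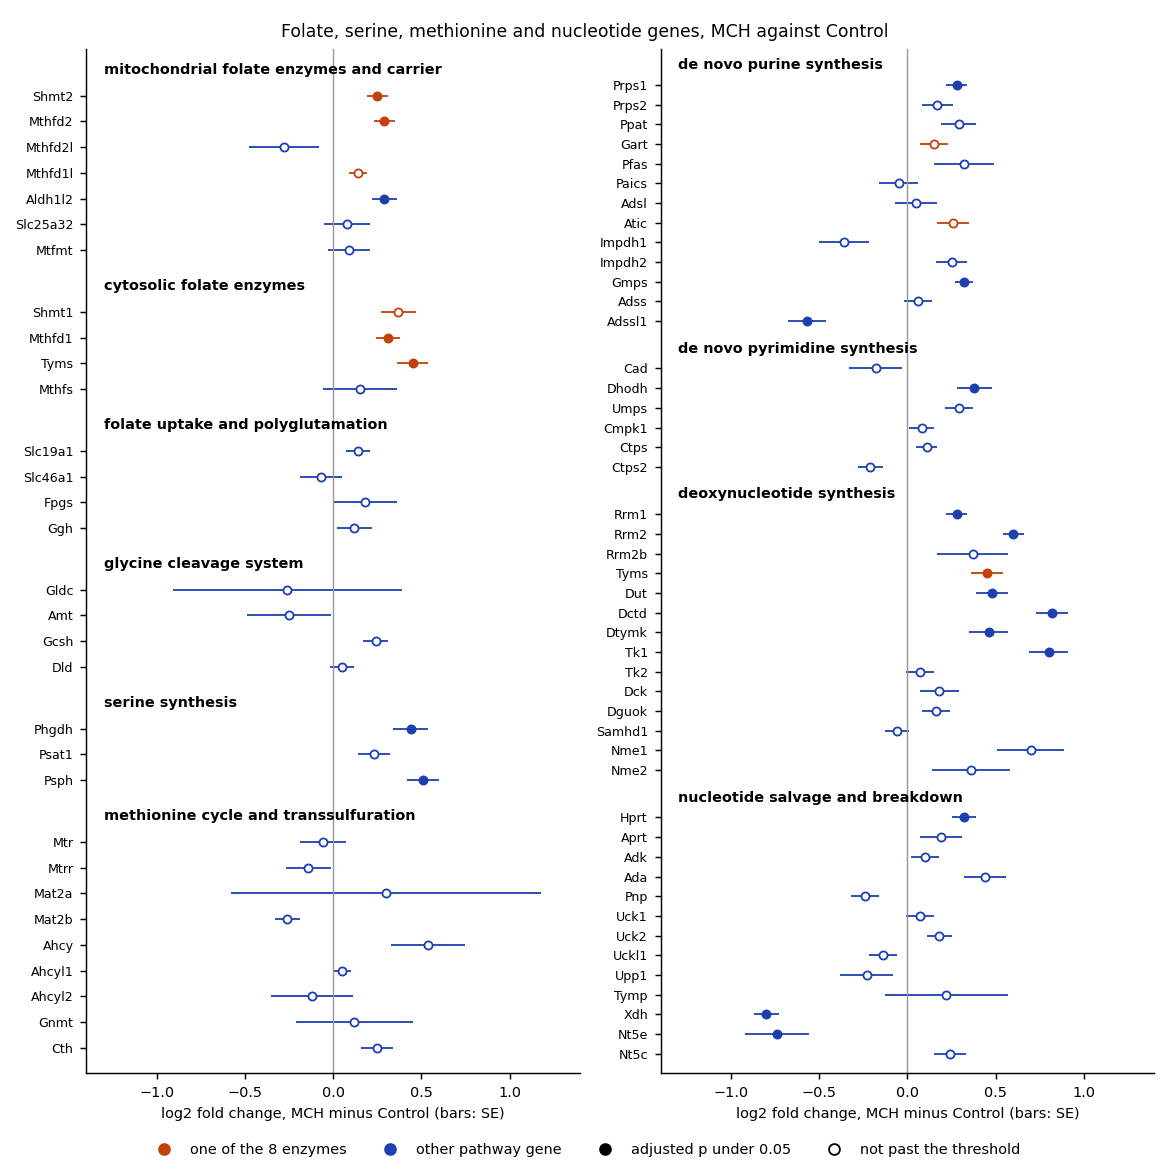
Log2 fold change (MCH minus Control; bars are SE) of the tested genes of the 10 pathway lists, with the 8 enzymes in orange and other genes in blue; filled points passed an adjusted p of 0.05. Tyms appears in both the cytosolic folate and the deoxynucleotide lists. In the deoxynucleotide list 7 of 14 genes are filled on the right of 0. The uptake, glycine cleavage and methionine lists, with only 4, 4 and 9 tested genes, hold no filled point.

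Markers of cycling cells moved with the enzymes. Of 10 such genes 9 were called higher, against 3.64% of all genes tested. Mcm6 (0.63 ± 0.06 on the log2 scale) and Ccna2 (0.55 ± 0.08) were among the 9. The 10 genes summed to 1598 to 1603 CPM in the MCH libraries and 1141 to 1235 CPM in Control. Mki67 was the exception, with 271 ± 4.06 CPM in MCH libraries and 256 ± 21.5 CPM in Control. The part of cycling cells in the rise of the 8 enzymes was not tested. Nuclear-retained RNAs, listed as a sign of RNA quality, were lower in 2 of 4 tested genes, against 5.40% of all genes tested. Their summed levels were 1823 to 1935 CPM with MCH and 2472 to 2972 CPM in Control. The part of these RNAs was not tested either.

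By most of their markers the cells were stromal in both groups, though of the stromal list Thy1 had only 36 to 59 and Lepr 5 to 20 counts. Pdgfra, Pdgfrb and Ly6a were expressed but lower with MCH (3 of 10 stromal genes, against 5.40% of all genes tested). The list summed to 1859.5 to 1944 CPM with MCH and 2434 to 2522 CPM in Control. Another 3 of the 10 had a log2 fold change above 0 and did not pass: Vcam1 (0.48 ± 0.14), Itgb1 (0.08 ± 0.08) and Eng (0.04 ± 0.16). Of the osteoblast list, Alpl, Spp1 and Col1a1 were lower (3 of 4 tested; 4183 to 4597 CPM with MCH and 6072 to 6734 CPM in Control), while Runx2, a defining factor of the lineage, had 783 to 1111 counts in a library (47.9 ± 2.52 CPM with MCH and 56.5 ± 1.67 CPM in Control) and did not pass. The later osteoblast genes Sp7 and Bglap had at most 4 and 3 counts. The pan-leukocyte gene Ptprc had 0 to 2 counts, and erythroid markers summed to 0 to 8. Lymphocyte markers summed to 8.80 to 10.3 CPM with MCH and 4.18 to 4.82 CPM in Control, a difference carried by Cd3e, while Cd79a had at most 2 and Il7r at most 5 counts. Monocyte and macrophage markers summed to 138 to 178 CPM with MCH and 166 to 170.3 CPM in Control, mostly from Cd14 and Cd68. Cd14 was lower, at 94.6 ± 3.79 CPM in MCH libraries and 127 ± 3.91 CPM in Control (edgeR adjusted p = 0.00678), Cd68 had 45.9 ± 7.26 and 33.1 ± 3.66 CPM and did not pass, and 4 of the 5 tested had a log2 fold change above 0. Granulocyte markers summed to 24.7 to 33.3 and 29.8 to 36.8 CPM, and endothelial markers to 2.54 to 4.81 and 3.20 to 4.12 CPM. MCH replicate 3 stood apart in several macrophage genes: Adgre1 had 50 counts there and at most 11 elsewhere, Ctss 92 and at most 23, C1qb 31 and at most 9, Csf1r 95 and at most 51, and Lyz2 176 and at most 110. The part of such cells in the results was not tested, and the enzymes without that library are given above. Library totals ran from 16521980 to 18803949 counts, and the 8 enzymes had 260 to 8331 counts per library. On the first principal component MCH replicate 1 lay at -10.9, nearer to Control (18.9 to 25.5) than MCH replicates 2 and 3 (-32.3 and -24.8).

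Positions in the deposited table (GRCm38) put Shmt2 at chr10:127517123-127522444, Mthfd1l at chr10:3973118-4167081, Mthfd2 at chr6:83305691-83325908, Mthfd1 at chr12:76255232-76319820, Shmt1 at chr11:60788104-60811718, Tyms at chr5:30058202-30073617, Gart at chr16:91621186-91646952 and Atic at chr1:71557150-71579631. Shmt2 shares 32 of its 3109 annotated exon bases with Ndufa4l2, Shmt1 184 of 3883 with Smcr8, Mthfd1 37 of 4442 with Gm47525 and Gart 1014 of 5144 with Gm15964, all antisense. The other genes that overlap an enzyme in M21 (Gm47526 and Gm34868 at Mthfd1, Gm43890 at Mthfd2, Gm16074 and Gm25515 at Mthfd1l, Gm24945 at Shmt1) share 0 exon bases with it. Without a stated strand setting, reads in the shared stretches cannot be assigned. Ndufa4l2 went the other way from Shmt2, with 5381, 6963 and 6212 counts with MCH and 10200, 9144 and 9122 in Control (log2 fold change -0.61 ± 0.12; edgeR adjusted p = 0.0232). For Tyms, 1 pseudogene named after it is annotated, so reads that fit both are uncertain.

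Over the 6 libraries, the genes whose log2 CPM followed each called enzyme most closely were Arf4 and Me2 for Tyms (Pearson's r = 0.999 for both), Rrm1 and Adpgk for Mthfd1 (0.997 and 0.994), Iba57 and Stbd1 for Mthfd2 (0.993 for both), and Hgh1 and Setd6 for Shmt2 (0.998 and 0.997). These values are descriptions over 6 libraries in 2 groups. Of 10488 genes averaging 100 counts or more, 447 reached an r of 0.95 with Tyms, 359 with Shmt2, 145 with Mthfd1 and 98 with Mthfd2.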

How the data were processed

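The deposited table holds whole-number read counts per gene and FPKM for 6 libraries of polyadenylated RNA, per the file headers, and p-values and q-values from a comparison that the authors ran. The submitters' processing notes name GRCm38 (mm10). How reads were aligned, counted (strand included) and tested is not given in the sources used here. MCH stands in 3 column names; the other 3 name no group and were assigned to Control, the one group left, so the signs depend on this reading of the names. In the deposited table the authors mark 212 genes UP, and all 212 have the higher mean FPKM in the columns taken as Control.

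Counts were tested with edgeR 4.0.16 (R 4.3.3): TMM scaling, filterByExpr (minimum count 10, minimum total 15), a robust quasi-likelihood fit on group, two-sided tests and Benjamini-Hochberg adjustment over the 13662 genes kept. CPM values are TMM scaled, and each SE is the absolute unshrunken log2 coefficient over the root of its F statistic. The common biological coefficient of variation was 0.174. Ratios were tested by exact permutation over libraries. Motifs were searched in RefSeq promoter windows, which matched all 8 genes by symbol. The 8 members and the gene lists were chosen with earlier results of these data known. Named were the 8 enzymes and, per list, each gene past the threshold or else the one with the smallest p. Paics, Adsl, Ppat, Pfas, Mthfs, Mthfd2l, Slc25a32, Tk2, Dguok, Dck, Rrm2b, Samhd1, Nme1 and Nme2 were added as neighbours in the route, after their values were seen. Mcm6, Ccna2, Mki67 and Ndufa4l2 were also added after their values were seen. Some genes of the pathway are not reported here and are in no list count; Ftcd and Bhmt of the pathway lists, and 7 of the marker genes, were not analysed here. Alternatives were DESeq2 1.42.0, limma-voom (limma 3.58.1), scaling by RLE or upper quartile, 2 other filters, limma on log2(FPKM + 1) and on log2(FPKM + 0.1), a non-robust fit, a block for replicate number, and omission of each library in turn. The steps were tested on simulated counts. Replicates differed beyond counting error (14.9 to 25.3 as chi-square over its degrees of freedom), so none is a duplicate deposit, which does not show that they came from separate cultures or mice.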

Additional observations from a re-analysis of the deposited data

How the results depend on the processing

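Tyms, Mthfd1, Mthfd2 and Shmt2 were called higher, and no other of the 8 enzymes, under all 9 settings of scaling, filter, test or unit, where 424 to 706 genes were called higher and 673 to 856 lower over the whole table. With the replicate number as a block, none of the 8 was called (adjusted p from 0.138 for Tyms to 0.472 for Gart), and over all genes 28 were called higher and 151 lower. The deviations from the group means of libraries with equal numbers correlated at -0.161, -0.0386 and -0.0138, and those of libraries with unequal numbers at -0.0778 to 0.11. No pairing by number was seen, but with 3 libraries per group these values cannot exclude one. Without 1 library, 0 to 4 of the 8 were called higher, and over all genes 65 to 722 were called higher and 256 to 867 lower; these fits have fewer samples. None of the 8 was called lower in any setting, and by unadjusted edgeR p under 0.05 the count lower was also 0. Of the 8 enzymes and the 19 other pathway genes named by rule, none changed direction in any alternative. The differences in log2 ratio without 1 library ran from -0.16 to -0.07 for Shmt2 to Shmt1, from -0.20 to -0.15 for Mthfd1l to Mthfd1 and from -0.06 to 0.00 for Mthfd2 to Mthfd1, which was 0.00 without MCH replicate 2 or Control replicate 1. The enzymes had 260 (Shmt1) to 8331 (Shmt2) counts in a library, so counting error weighs most on Shmt1, and the 4 enzymes that did not pass are not shown to be unchanged.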

Other observations

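Mat2a, which makes S-adenosylmethionine and so uses the methionine that folate helps to regenerate, was looked at after its values were seen because its libraries disagreed within both groups. It had 2848, 570 and 948 counts in MCH replicates 1 to 3 and 579, 2465 and 711 in Control (167, 32.2 and 55.0 CPM with MCH; 35.6, 129 and 41.3 CPM in Control). The highest library exceeded the lowest by 5.20-fold with MCH and by 3.62-fold in Control. Among the 6332 tested genes that averaged 500 counts or more, 33 had at least a 3-fold spread within both groups. The fitted log2 fold change of 0.30 ± 0.88 (edgeR adjusted p = 0.862) therefore says little about Mat2a in either direction.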
